A study of Mus musculus with 5 samples.

Results

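The matrix metalloproteinases (Mmp), the Adamts proteases with their non-catalytic Adamts-like relatives (Adamtsl), and the tissue inhibitors of metalloproteinases (Timp) were examined in marrow stromal cells of 2 fetal origins. Members were the protein-coding genes of the count table whose mouse symbol starts with Mmp or Timp and a digit, or with Adamts, which gave 46 of 17087 protein-coding genes, namely 19 Mmp, 18 Adamts, 5 Adamtsl and 4 Timp genes. Bulk RNA-seq was done on 5 samples of femoral cells sorted at P21 for high Cxcl12-GFP and for tdTomato, after a tamoxifen pulse at E12.5. Dlx5CE-E12.5 cells came from Cxcl12(GFP/+); Dlx5(CreER/+); R26R(tdTomato/+) mice (3 libraries, replicates 1 to 3), in which the driver marks fetal perichondrial cells. Fgfr3CE-E12.5 cells came from Cxcl12(GFP/+); Fgfr3-iCreER; R26R(tdTomato/+) mice (2 libraries, which the labels number 2 and 3), in which an *Fgfr3* transgene on an artificial chromosome marks fetal chondrocytes. Every animal therefore carried GFP in place of *Cxcl12* on 1 allele, and pregnant dams received 3 mg of tamoxifen. Distal growth plates were removed before enzymatic dissociation, cells of littermates were pooled by genotype from 4 mice per group, recombination may continue for some days after the pulse, and purity after the sort was not determined. The labels call the sorted cells CAR cells (Cxcl12-abundant reticular cells). The comparison asks how stromal cells derived from perichondrium and from cartilage differ.

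Metalloproteinases of the Mmp family are zinc-dependent enzymes, most of them secreted as inactive precursors, that cleave collagens, gelatin and other matrix components, and membrane-anchored members act at the cell surface. Adamts proteases carry thrombospondin repeats; some cleave the large aggregating proteoglycans such as versican and aggrecan, and others trim procollagen ends, whereas Adamts-like proteins lack the catalytic domain. Timps bind and inhibit these enzymes. In growing long bones *Mmp9*, *Mmp13* and *Mmp14* are known for the removal of cartilage matrix and the remodelling of bone at the chondro-osseous junction.

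Total counts were 22035650 to 32563758 in the Dlx5CE-E12.5 libraries and 56355203 and 58166285 in the Fgfr3CE-E12.5 libraries. Levels are given as CPM (counts scaled to the library size after TMM normalization). A floor of 3 counts corresponded to 0.0516 to 0.136 CPM of the unnormalized library totals, which covers counting error only. All 9 CAR cell markers were detected in every group, with a summed level of 36800 to 39800 CPM in Dlx5CE-E12.5 and of 16500 and 9870 CPM in Fgfr3CE-E12.5 libraries. The Fgfr3CE-E12.5 libraries stood apart from each other. In replicate 2 the 12 chondrocyte markers summed to 3330 CPM against 500 in replicate 3 and 138 to 147 in Dlx5CE-E12.5 cells. *Col2a1*, at 2730 and 361 CPM, made up most of the Fgfr3CE-E12.5 sums. *Sox9*, at 123 to 131 CPM, made up most of the Dlx5CE-E12.5 sums. The 12 neutrophil markers summed to 7440 CPM in replicate 2, 18400 in replicate 3 and 2630 to 3290 in Dlx5CE-E12.5 cells. The study's methods give a NovaSeq with longer paired-end reads for Dlx5CE-E12.5 and a HiSeq with shorter single-end reads for Fgfr3CE-E12.5 libraries, while the labels name the HiSeq throughout, so under the methods' account sequencing and lineage cannot be told apart. In bulk samples, fewer cells of a type and less RNA per cell cannot be told apart either.

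Of the 46 members, 25 had 10 CPM or more in 2 or more libraries and were tested in the main comparison. A gene counted as called when its adjusted p was below 0.05 and its log2 fold change exceeded 1 in either direction (quasi-likelihood test of edgeR, Benjamini-Hochberg adjustment over all 10088 genes tested, fold change as Fgfr3 over Dlx5). On this rule 7 members were higher in Fgfr3CE-E12.5 cells and 7 in Dlx5CE-E12.5 cells, where 16.4% and 13.1% of all genes tested were called in those directions, and 11 were not called. The families divided. Of the 10 Mmp genes tested, 5 were called higher in Fgfr3CE-E12.5 and 1 in Dlx5CE-E12.5 cells, with a median log2 fold change of 1.36. Of the 9 Adamts genes tested, 0 were called higher in Fgfr3CE-E12.5 and 4 in Dlx5CE-E12.5 cells, with a median of -0.52, beside a median of 0.01 over all genes tested. Of the 2 Adamtsl genes tested 1 was higher in Dlx5CE-E12.5 cells, and of the 4 Timps 2 were higher in Fgfr3CE-E12.5 and 1 in Dlx5CE-E12.5 cells. Among the called members, *Mmp17*, *Mmp19*, *Adamts14*, *Adamtsl3* and *Timp4* passed the filter only through the group in which they are high. The counts and medians by family are therefore not independent of the filter. Every Fgfr3CE-E12.5 library lay above every Dlx5CE-E12.5 library for 9 of the 25 members, and the reverse held for 11, beside 34.8% and 34.1% of all genes tested.

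**Figure D1:**
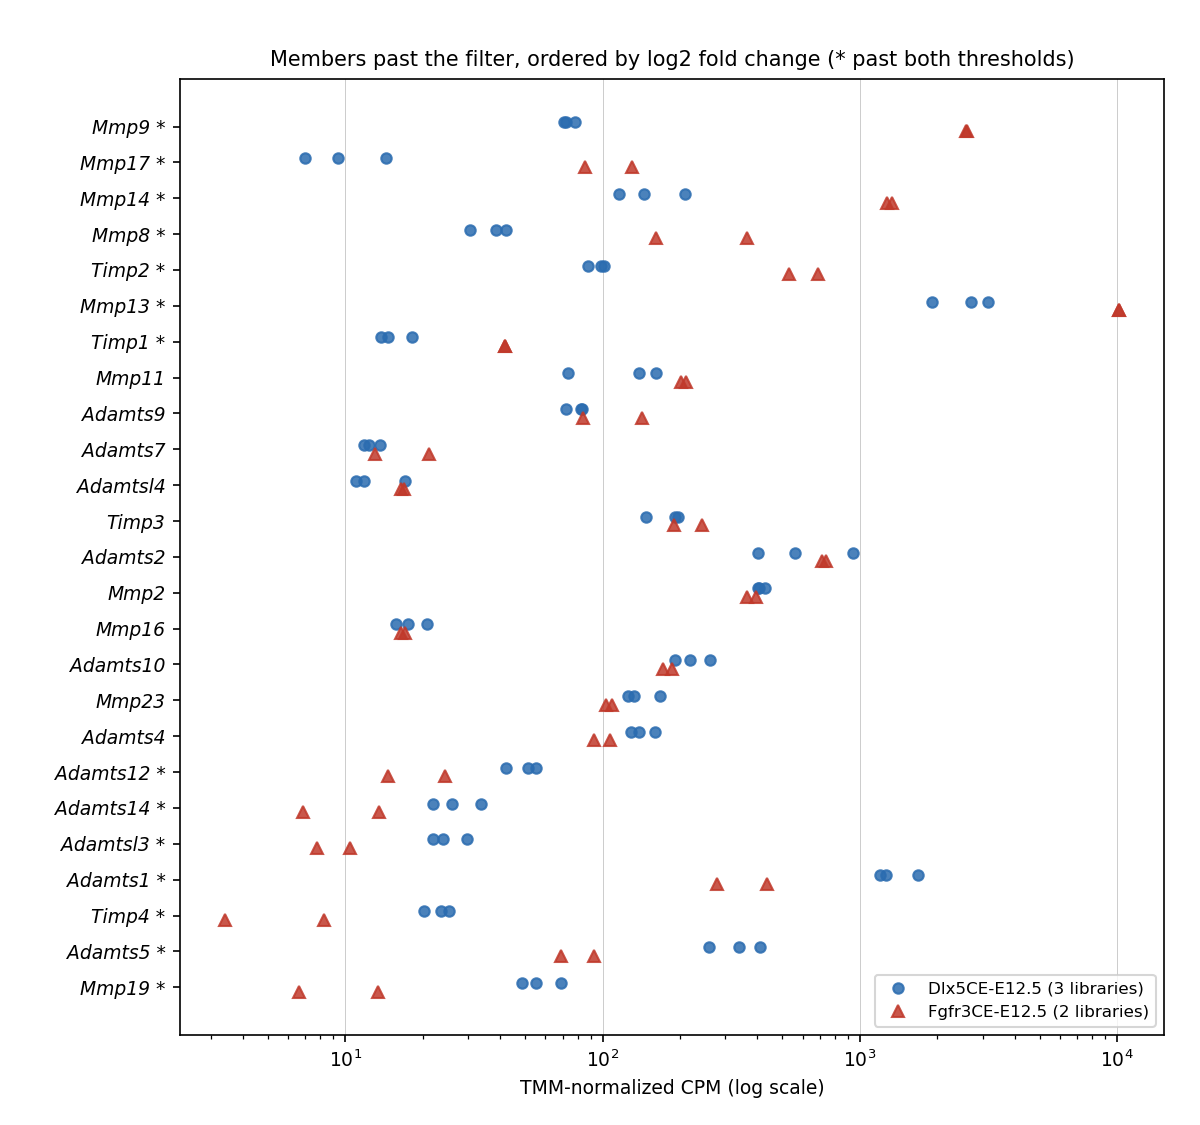
TMM-normalized CPM (log axis) of the 25 members tested in the main comparison in each of the 3 Dlx5CE-E12.5 libraries (circles) and 2 Fgfr3CE-E12.5 libraries (triangles), ordered by log2 fold change, with an asterisk on the 14 called members. *Mmp9* lies at the top with 71.1 to 78.3 CPM against 2590 and 2620, and *Mmp19* at the bottom with 48.5 to 68.8 CPM against 6.61 and 13.4.

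A further 10 members entered when the filter was lowered to 1 CPM or more in 2 or more libraries, which left 35 members among 13225 genes. In that fit 9 members were called higher in Fgfr3CE-E12.5 and 10 in Dlx5CE-E12.5 cells, beside 16.6% and 12.9% of all genes tested. The first count holds *Mmp10*, which passed the lower filter only through the Fgfr3CE-E12.5 libraries, in which it is high. The remaining 11 members (*Mmp3*, *Mmp12*, *Mmp21*, *Mmp24*, *Mmp27*, *Adamts6*, *Adamts8*, *Adamts13*, *Adamts16*, *Adamts20* and *Adamtsl2*) were under this filter and were not tested. Their highest count in a library was 86, that of *Adamts8* in Fgfr3CE-E12.5 replicate 2, where replicate 3 had 0.

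Collagenases cleave the triple helix of fibrillar collagen, and both members measured here were higher in Fgfr3CE-E12.5 cells. *Mmp13* (ENSMUSG00000050578, GRCm38 chromosome 9 from 7272514 to 7283331), the collagenase of hypertrophic chondrocytes and osteoblasts, had a CPM of 1910, 3140 and 2700 in the Dlx5CE-E12.5 libraries and 10200 in each Fgfr3CE-E12.5 library. It had the highest count of any gene in both Fgfr3CE-E12.5 libraries (rank 1, with 598025 and 612794 counts), whereas its rank was 59, 30 and 39 in the Dlx5CE-E12.5 libraries. The groups did not overlap, and the log2 fold change was 1.98 (standard error 0.24, adjusted p = 0.000784, edgeR). The 2 Fgfr3CE-E12.5 libraries differed by 1.01 times in *Mmp13*, while their summed chondrocyte markers differed by 6.66 times and their summed osteoblast markers by 0.76 times (replicate 2 over replicate 3). Most of the chondrocyte sums was *Col2a1*, and single chondrocyte markers differed by 1.21 (*Col11a2*) to 99.3 times (*Col10a1*). Of the 12 osteoblast markers, 6 were higher in replicate 2 and 6 in replicate 3. *Col1a1*, at 2740 and 5450 CPM, made up a large part of their sums of 7920 and 10400 CPM. The part of either cell type in the *Mmp13* level was not tested.

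*Mmp8* (chromosome 9, 7558456 to 7568485), the collagenase stored in neutrophil granules, had a CPM of 42.1, 38.7 and 30.6 in the Dlx5CE-E12.5 libraries and 162 and 363 in the Fgfr3CE-E12.5 libraries. Replicate 3 of Fgfr3CE-E12.5 held the highest level, and the groups did not overlap. The log2 fold change was 2.82 (standard error 0.33, adjusted p = 0.000662, edgeR), and it was 2.13 without Fgfr3CE-E12.5 replicate 3 and 3.29 without replicate 2. The *Mmp8* level in replicate 2 was 0.448 times that in replicate 3, and the summed level of the neutrophil markers 0.405 times. The osteoblast markers *Bglap*, *Bglap2* and *Ifitm5* also had ratios of 0.431, 0.405 and 0.327, though 6 of those 12 markers were higher in replicate 2. All 12 neutrophil markers were called higher in Fgfr3CE-E12.5 cells, beside 16.4% of all genes tested. Of these, *Ly6g* and *Cxcr2* passed the filter only through the Fgfr3CE-E12.5 libraries, so their calls are not independent of it. The 8 pan-leukocyte markers were also all called higher, at 290 to 368 CPM against 932 and 1930, and the part of either list in the *Mmp8* result was not tested.

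The gelatinases parted. *Mmp9* (ENSMUSG00000017737, chromosome 2 from 164940780 to 164955850), which digests denatured collagen and is made by osteoclasts and neutrophils among other cells, had a CPM of 72.1, 78.3 and 71.1 in the Dlx5CE-E12.5 libraries and 2620 and 2590 in the Fgfr3CE-E12.5 libraries. The libraries of a group lay close together and the groups far apart, and by count *Mmp9* ranked between 2655 and 2953 in Dlx5CE-E12.5 but at 24 and 26 in Fgfr3CE-E12.5 libraries. Its log2 difference of 5.14 (standard error 0.16, adjusted p = 3.4e-05, edgeR), a 35.3-fold difference, was the largest of the 25 members. *Mmp2* (chromosome 8, 92827291 to 92853420), a gelatinase widely made by stromal cells, had a CPM of 427, 401 and 405 against 395 and 366. Its log2 fold change was -0.11 (95% interval -0.43 to 0.21, adjusted p = 0.526, edgeR), so that a difference beyond 2-fold lay outside the interval, and scaling by library size alone turned its sign, to 0.07.

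The markers of cells known to make *Mmp9* were set beside it. *Mmp9* differed by 1.01 times between the Fgfr3CE-E12.5 libraries, where the summed neutrophil markers differed by 0.405 times. Of the 7 macrophage markers tested, 6 were called higher in Fgfr3CE-E12.5 cells, beside 16.4% of all genes tested. *Adgre1* and *Cd68* passed the filter only through the Fgfr3CE-E12.5 libraries, so their calls are not independent of it. *Mrc1* did not pass it, and had a log2 fold change of -1.05 under the lower filter (adjusted p = 0.0545, edgeR). Their sum differed by 0.442 times between the Fgfr3CE-E12.5 libraries, but most of it was *Lyz2*, which neutrophils also make. Of the 8 macrophage markers, 7 were higher in replicate 3 than in replicate 2. *C1qa* and *Adgre1* differed by 0.985 and 0.918 times, and *Csf1r*, *C1qb*, *Cd68* and *C1qc* by 0.624 to 0.712 times. *Mrc1* differed by 1.76 times. The 8 osteoclast markers summed to 257, 260 and 307 CPM in Dlx5CE-E12.5 and to 327 and 331 in Fgfr3CE-E12.5 libraries, a ratio of 0.988 between the latter, and *Ctsk* and *Nfatc1* made up most of these sums. Within that list *Acp5*, the tartrate-resistant acid phosphatase, was called higher in Fgfr3CE-E12.5 cells (log2 fold change 2.07, adjusted p = 0.000577, edgeR). *Ctsk*, the collagen-degrading cathepsin K, had a value of -0.05 and *Nfatc1* of -0.1, and neither was called. The fusion genes *Ocstamp* and *Dcstamp* had 0 counts in every Dlx5CE-E12.5 library and a CPM of 4.02 and 3.01, and of 2.46 and 3.02, in the Fgfr3CE-E12.5 libraries. *Atp6v0d2*, a proton pump subunit of osteoclasts, had 0, 0 and 0.251 CPM against 11.7 and 8.65. *Oscar* had 8, 0 and 1 counts against 42 and 8, and *Calcr* had 0 counts in every Dlx5CE-E12.5 library against 18 and 0. The part of neutrophils, osteoclasts and macrophages in the *Mmp9* level was not tested.

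Among the stromelysins and related enzymes, *Mmp11* had a CPM of 73.6, 162 and 139 against 202 and 212, and its adjusted p of 0.0876 (edgeR) missed the threshold. *Mmp10*, a stromelysin, had 0, 3 and 6 counts in the Dlx5CE-E12.5 libraries and 112 and 189 in the Fgfr3CE-E12.5 libraries. These low counts did not overlap, and the log2 fold change under the lower filter was 4.25 (standard error 0.95, 95% interval 2.00 to 6.50, adjusted p = 0.0108, edgeR). *Mmp10* passed that filter only through the Fgfr3CE-E12.5 libraries, in which it is high, so this call is not independent of the filter. The call was lost without Fgfr3CE-E12.5 replicate 3 (3.84, adjusted p = 0.0572, edgeR), and the adjusted p was at most 0.0572 over the alternatives tried. Of the 50-base windows of *Mmp10*, 8.37% also occurred in *Mmp3*, which had at most 6 counts in any library.

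*Mmp13*, *Mmp12*, *Mmp3*, *Mmp10*, *Mmp8* and *Mmp27* lay in this order on chromosome 9, with gaps of 61.0, 76.3, 46.4, 48.2 and 2.9 kb and no other protein-coding gene of the table between them. Neighbours in the group differed widely in count. *Mmp13*, *Mmp10* and *Mmp8* were called higher in Fgfr3CE-E12.5 cells, the second of these under the lower filter, while *Mmp12* had 1 to 8 counts against 26 and 14. *Mmp27*, 2.9 kb beyond *Mmp8*, had 4, 11 and 24 counts against 6 and 12, and its groups overlapped.

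**Figure D2:**
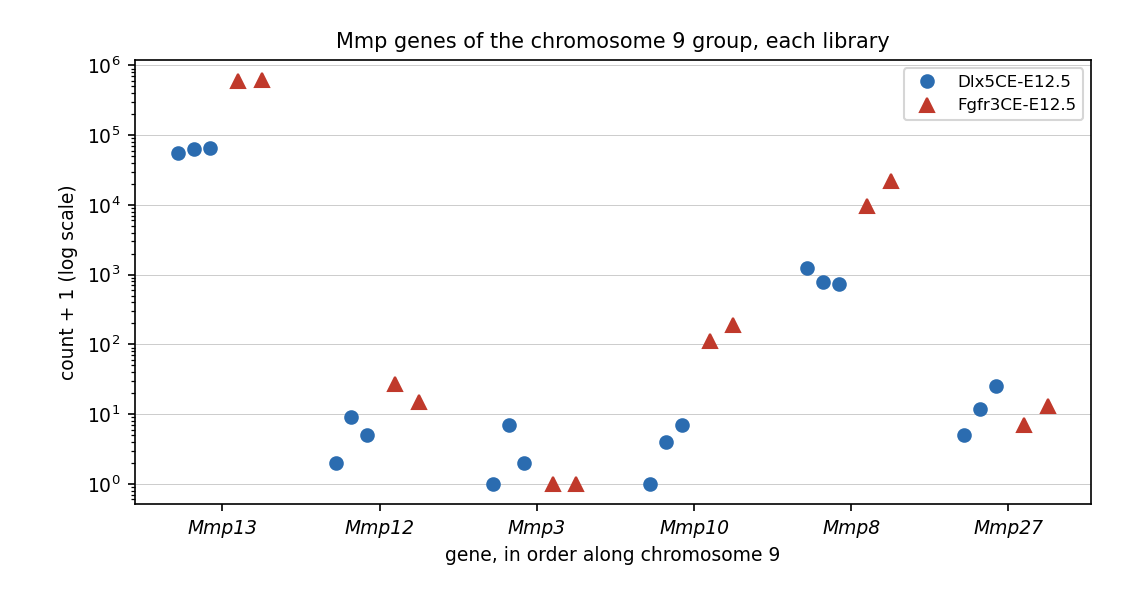
Counts plus 1 (log axis) of the 6 neighbouring Mmp genes in their order on chromosome 9, in the 3 Dlx5CE-E12.5 libraries (circles, replicates 1 to 3) and the 2 Fgfr3CE-E12.5 libraries (triangles, replicates 2 and 3). *Mmp13* spans 55601 to 612794 counts and *Mmp8* 731 to 21844, whereas *Mmp12*, *Mmp3* and *Mmp27* stay at 26 counts or fewer.

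Promoter windows of RefSeq (build GRCm38.p6) were found for 32 of the 46 members, with no entry for *Mmp9* and *Mmp17*. In the 250 bases before each start, 3 motifs were searched on both strands: AP-1 as TGANTCA, RUNX as TGTGGT and ETS as AGGAAG. The AP-1 letters occurred in 4 members, *Mmp13*, *Mmp12*, *Mmp3* and *Mmp10*, which all belong to the chromosome 9 group, and in 7.82% of all 27025 genes with a window. Their first bases lay 35, 44, 46 and 63 bases before the start. In *Mmp12* the match lay in the window from 7347124 to 7347373. Its other window, from 7344147 to 7344396 at the annotated gene start, held an ETS match and no AP-1 match. The RUNX letters occurred in 4 members, *Mmp13*, *Mmp14*, *Mmp23* and *Mmp27*, and in 15.9% of all genes. In *Mmp23* they lay in the window from 155653385 to 155653634 and not in that from 155653291 to 155653540. The ETS letters occurred in 11 members and in 32.3% of all genes. Windows are shown for *Mmp13* with all 3 motifs, its neighbours *Mmp3*, *Mmp10* and *Mmp8* at very different levels, *Mmp14*, and *Adamts1* as the most abundant Adamts gene higher in Dlx5CE-E12.5 cells, with the matched letters in capitals.
*Mmp13* (chr9:7272264-7272513, forward strand): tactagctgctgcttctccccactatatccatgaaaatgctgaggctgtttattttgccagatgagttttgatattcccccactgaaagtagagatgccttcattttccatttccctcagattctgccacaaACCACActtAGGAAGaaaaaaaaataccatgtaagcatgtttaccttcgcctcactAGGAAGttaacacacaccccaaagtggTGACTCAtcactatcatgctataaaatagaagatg
*Mmp3* (chr9:7445572-7445821, forward strand): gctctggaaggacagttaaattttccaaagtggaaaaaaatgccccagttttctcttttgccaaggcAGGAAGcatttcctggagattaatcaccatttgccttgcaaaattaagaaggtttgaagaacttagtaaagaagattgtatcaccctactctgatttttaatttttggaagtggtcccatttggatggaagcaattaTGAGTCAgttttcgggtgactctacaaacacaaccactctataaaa
*Mmp10* (chr9:7502092-7502341, forward strand): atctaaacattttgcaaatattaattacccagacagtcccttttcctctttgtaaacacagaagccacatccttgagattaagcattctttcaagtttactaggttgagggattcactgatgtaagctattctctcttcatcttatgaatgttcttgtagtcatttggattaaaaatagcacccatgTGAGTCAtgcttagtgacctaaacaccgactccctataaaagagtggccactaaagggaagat
*Mmp8* (chr9:7558179-7558428, forward strand): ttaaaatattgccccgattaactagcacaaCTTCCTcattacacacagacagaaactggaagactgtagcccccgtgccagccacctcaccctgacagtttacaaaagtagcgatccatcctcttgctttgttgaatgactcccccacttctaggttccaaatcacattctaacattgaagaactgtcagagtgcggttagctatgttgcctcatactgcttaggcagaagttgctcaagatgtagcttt
*Mmp14* (chr14:54431348-54431597, forward strand): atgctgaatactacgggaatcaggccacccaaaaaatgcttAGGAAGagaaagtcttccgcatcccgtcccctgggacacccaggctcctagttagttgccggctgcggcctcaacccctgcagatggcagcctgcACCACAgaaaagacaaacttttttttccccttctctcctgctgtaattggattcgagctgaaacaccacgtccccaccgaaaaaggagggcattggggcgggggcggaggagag
*Adamts1* (chr16:85803114-85803363, reverse strand): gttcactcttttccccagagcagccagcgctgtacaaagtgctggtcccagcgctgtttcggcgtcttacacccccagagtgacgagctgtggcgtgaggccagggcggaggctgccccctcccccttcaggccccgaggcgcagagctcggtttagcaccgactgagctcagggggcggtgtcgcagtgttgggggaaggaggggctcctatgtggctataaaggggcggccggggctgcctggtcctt
In *Mmp13*, the AP-1 match (TGACTCA) began 35 bases before the start, the RUNX match, on the opposite strand and read here as ACCACA, at 118 bases, and the ETS matches at 109 and 62 bases, with no overlap. *Mmp3* and *Mmp10* carried the AP-1 match as TGAGTCA, yet *Mmp3* had 0 counts in both Fgfr3CE-E12.5 libraries. *Mmp8* held an ETS match on the opposite strand (CTTCCT) and *Mmp14* a RUNX match at 114 and an ETS match at 209 bases, while none of the 3 sets of letters occurred in the *Adamts1* window. These are matches of letters in a window, and binding was not measured.

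Membrane-anchored enzymes act on matrix and on other proteases at the cell surface. *Mmp14* (ENSMUSG00000000957, chromosome 14 from 54431612 to 54445364), the membrane-type collagenase that also activates the *Mmp2* and *Mmp13* products, had a CPM of 116, 145 and 210 in the Dlx5CE-E12.5 libraries and 1280 and 1340 in the Fgfr3CE-E12.5 libraries. It was 8.34-fold higher in Fgfr3CE-E12.5 cells without overlap (log2 fold change 3.06, standard error 0.26, adjusted p = 0.000181, edgeR), and the Fgfr3CE-E12.5 libraries differed by 0.957 times. *Mmp17*, a member anchored by a glycolipid, had a CPM of 14.4, 9.37 and 6.95 against 130 and 85.8. *Mmp17* would not have passed the filter without the Fgfr3CE-E12.5 libraries, in which it is high, so this call is not independent of the filter. Its groups did not overlap either (log2 fold change 3.40, standard error 0.33, adjusted p = 0.00032, edgeR).

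*Mmp25*, the glycolipid-anchored enzyme known from leukocytes, had 78, 102 and 66 counts in the Dlx5CE-E12.5 libraries and 242 and 1459 in the Fgfr3CE-E12.5 libraries, that is a CPM of 2.68, 5.05 and 2.76 against 4.14 and 24.2. Replicate 3 alone stood out, and replicate 2 lay within the range of the Dlx5CE-E12.5 libraries. The call under the lower filter (log2 fold change 2.00, standard error 0.68, adjusted p = 0.0499, edgeR) rested on that library, since the value was 0.23 without it, with an adjusted p of 0.788 (edgeR) and a range of 0.00352 to 0.788 over the alternatives. Its ratio between the libraries was 0.171, beside 0.484 for the summed pan-leukocyte markers. *Mmp16* and *Mmp15* were not called, at log2 fold changes of -0.11 and, under the lower filter, 0.38.

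*Mmp19*, a secreted enzyme that cleaves basement membrane components, was the Mmp gene called higher in Dlx5CE-E12.5 cells. Its CPM was 48.5, 68.8 and 55.3 in the Dlx5CE-E12.5 libraries and 13.4 and 6.61 in the Fgfr3CE-E12.5 libraries. Without the Dlx5CE-E12.5 libraries *Mmp19* would not have passed the filter, so this call is not independent of it. Every Dlx5CE-E12.5 library lay above both others (log2 fold change -2.52, standard error 0.34, adjusted p = 0.0012, edgeR), and the value was -3.12 without Fgfr3CE-E12.5 replicate 2 and -2.10 without replicate 3. Of its exon bases, 28.33% are overlapped by *Tmem198b* and *Gm47093* on the other strand, whose reads cannot be told apart from its own where strand was not used. *Mmp23* and *Mmp28* were not called, with log2 fold changes of -0.42 and, under the lower filter, -0.37.

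**Figure D3:**
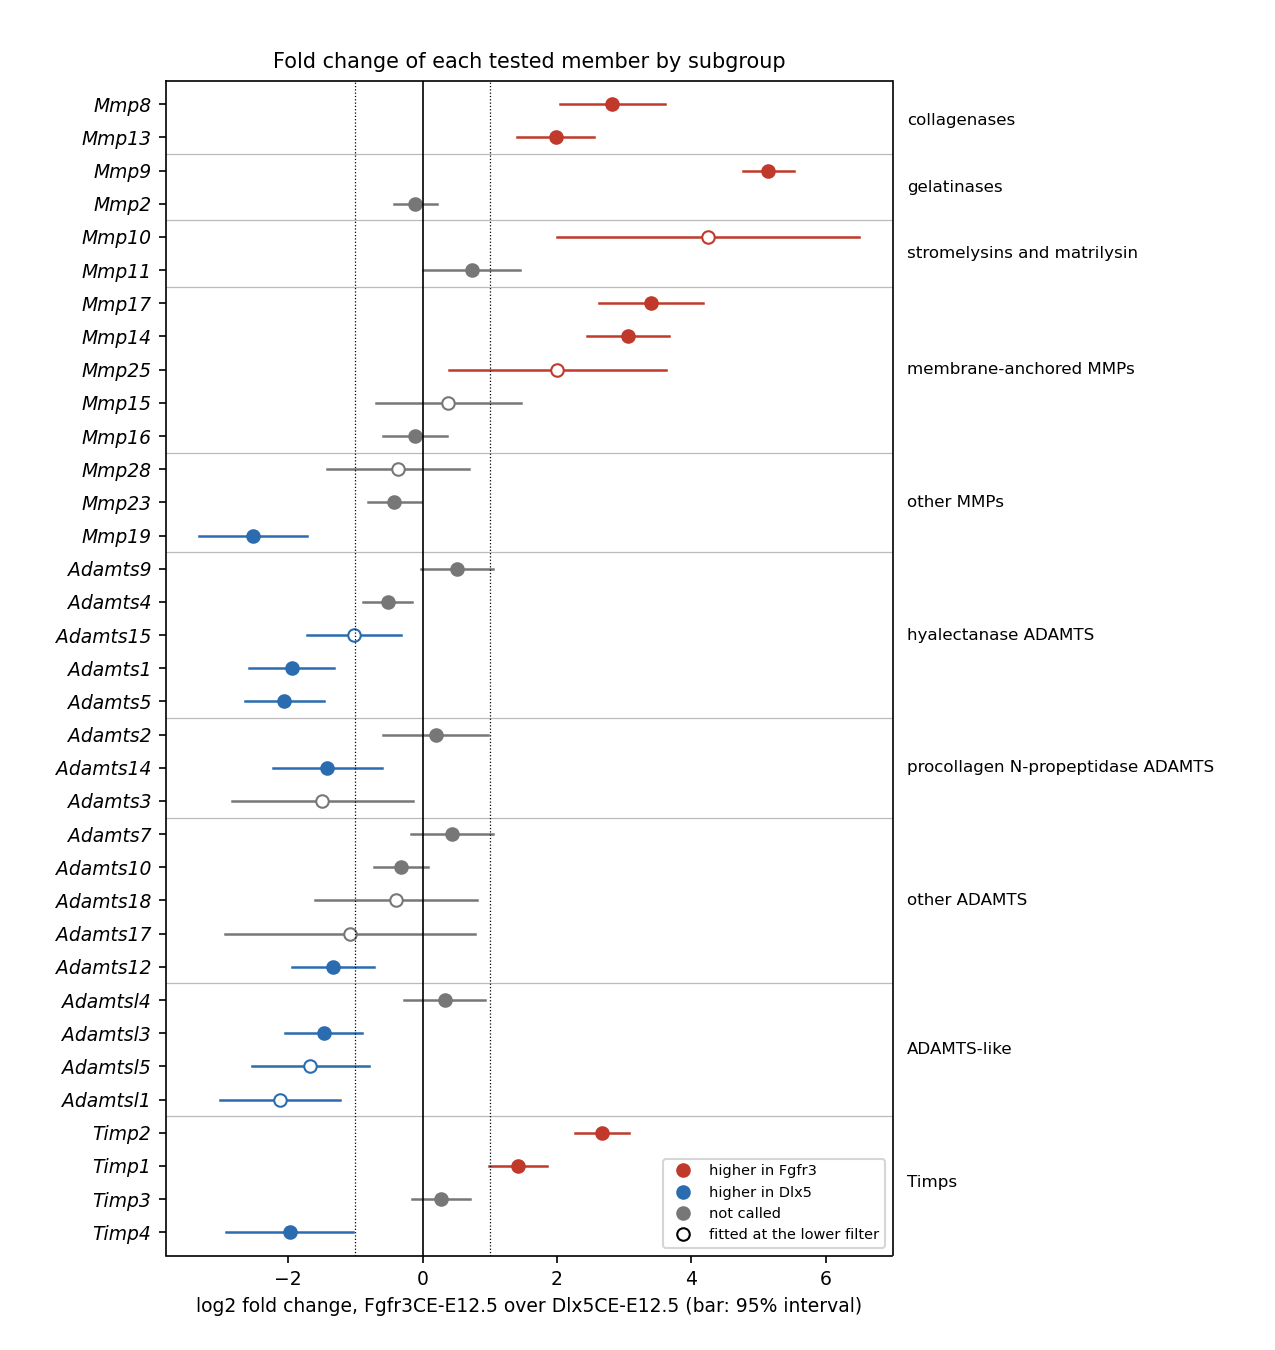
Log2 fold change (Fgfr3CE-E12.5 over Dlx5CE-E12.5) of the 35 members fitted, with the 95% interval as a bar, by subgroup of enzyme; filled points come from the main comparison, open points from the lower filter, and dotted lines mark a log2 fold change of 1 in each direction. Called Mmp genes reach 5.14 on the right, while every called Adamts and Adamtsl gene lies between -2.12 and -1.02.

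The Adamts genes called were all higher in Dlx5CE-E12.5 cells. Among the proteases that cleave versican and aggrecan, *Adamts1* (ENSMUSG00000022893, chromosome 16 from 85793827 to 85803113) had a CPM of 1200, 1270 and 1680 in the Dlx5CE-E12.5 libraries and 436 and 279 in the Fgfr3CE-E12.5 libraries. The groups did not overlap, and the log2 fold change was -1.95 (standard error 0.27, adjusted p = 0.00128, edgeR). *Adamts5* (chromosome 16, 85856173 to 85901828), a major aggrecanase of cartilage, lay 53.1 kb from *Adamts1* with no protein-coding gene of the table between them. Its CPM was 260, 411 and 338 against 92.9 and 68.8, and it moved by -2.06 (standard error 0.25, adjusted p = 0.00076, edgeR), again without overlap.

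Other aggrecanases moved less. *Adamts4* had a CPM of 160, 129 and 138 against 92.4 and 107, and its log2 difference of -0.52 (standard error 0.15, adjusted p = 0.027, edgeR) was under the fold threshold although the groups did not overlap. *Adamts9* had the opposite sign at 0.51 (adjusted p = 0.101, edgeR), with 71.9 to 83.2 CPM against 142 and 83.9, and 11.99% of its exon bases are overlapped by genes on the other strand. *Adamts15*, under the lower filter, had a CPM of 11.0, 9.86 and 13.2 against 6.88 and 4.48 and a log2 difference of -1.02 (standard error 0.30, adjusted p = 0.0293, edgeR), at the edge of the fold threshold. This call was kept in 6 of 12 alternatives, and the value was -0.74 without Fgfr3CE-E12.5 replicate 3 and -0.89 without Dlx5CE-E12.5 replicate 3.

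The procollagen N-propeptidases, which trim the amino ends of fibrillar procollagens, did not move together. *Adamts14* had a CPM of 33.6, 22.0 and 25.9 in the Dlx5CE-E12.5 libraries and 6.88 and 13.5 in the Fgfr3CE-E12.5 libraries, without overlap (log2 fold change -1.42, standard error 0.34, adjusted p = 0.013, edgeR). Without the Dlx5CE-E12.5 libraries *Adamts14* would not have passed the filter, so this call is not independent of it. *Adamts2*, the most abundant of them, had 402, 562 and 937 CPM against 739 and 716, with overlapping groups and a log2 fold change of 0.20 (95% interval -0.59 to 0.98). *Adamts3*, under the lower filter, did not pass the test at -1.49 (adjusted p = 0.0718, edgeR). Without Fgfr3CE-E12.5 replicate 2 it did (-2.29, adjusted p = 0.0391, edgeR), within a range of 0.0257 to 0.37 over the alternatives.

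Of the other Adamts proteases, *Adamts12*, which degrades cartilage oligomeric matrix protein, had a CPM of 51.1, 55.3 and 42.0 against 24.5 and 14.7. The groups did not overlap, and the log2 fold change was -1.33 (standard error 0.26, adjusted p = 0.00539, edgeR), with a value of -0.99, short of the fold threshold, once a trend on gene length was removed. *Adamts7* and *Adamts10*, at 0.44 and -0.32, were not called, nor were *Adamts17* and *Adamts18* under the lower filter, at -1.08 and -0.39. Adamts-like proteins lack a protease domain and associate with the matrix. *Adamtsl3* had a CPM of 29.7, 22.0 and 24.0 against 10.4 and 7.77 (log2 fold change -1.47, standard error 0.24, adjusted p = 0.00268, edgeR). Without the Dlx5CE-E12.5 libraries *Adamtsl3* would not have passed the main filter, so this call is not independent of it. Under the lower filter, *Adamtsl1* had 10.9, 8.18 and 13.7 CPM against 1.93 and 3.17 and moved by -2.12 (adjusted p = 0.00427, edgeR). *Adamtsl5*, at 9.03, 10.9 and 18.6 against 3.90 and 4.28 CPM, moved by -1.67 (adjusted p = 0.0103, edgeR). These 3 genes did not overlap between the groups, whereas *Adamtsl4*, at 0.33 and with overlap, was not called.

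The Timps differed in both directions. *Timp2* (ENSMUSG00000017466, chromosome 11 from 118301069 to 118355740), the inhibitor that also links *Mmp14* to pro-*Mmp2* at the cell surface, had a CPM of 101, 87.7 and 98.9 in the Dlx5CE-E12.5 libraries and 691 and 529 in the Fgfr3CE-E12.5 libraries. It was 6.36-fold higher in Fgfr3CE-E12.5 cells without overlap (log2 fold change 2.67, standard error 0.17, adjusted p = 6.53e-05, edgeR). *Timp1*, a secreted inhibitor of most Mmp proteins, had a CPM of 18.2, 13.8 and 14.7 against 41.7 in each Fgfr3CE-E12.5 library, without overlap (log2 fold change 1.42, standard error 0.18, adjusted p = 0.000957, edgeR).

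*Timp4*, a Timp with a restricted tissue distribution, went the other way, with a CPM of 20.2, 25.4 and 23.6 against 8.30 and 3.40. *Timp4* would not have passed the filter without the Dlx5CE-E12.5 libraries, in which it is high, so this call is not independent of the filter. Its groups did not overlap (log2 fold change -1.98, standard error 0.40, adjusted p = 0.00613, edgeR), and its value was -2.76 without Fgfr3CE-E12.5 replicate 2 and -1.47 without replicate 3. *Timp3*, which stays bound to matrix and also inhibits Adamts proteases, had 148, 197 and 192 CPM against 243 and 190, with overlap and a log2 fold change of 0.27 (95% interval -0.16 to 0.71, adjusted p = 0.26, edgeR). Of its exon bases, 21.28% are overlapped by *Syn3* on the other strand.

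Levels of different genes were compared per length, as TPM (counts per kilobase of exon, scaled to the same total in every library). *Mmp13* was the most abundant member in every library, at 2930 ± 845 TPM (SD, n = 3) in Dlx5CE-E12.5 and 13100 ± 876 TPM (SD, n = 2) in Fgfr3CE-E12.5 cells. In Dlx5CE-E12.5 cells it was followed by *Adamts1* at 783 ± 144 TPM and *Mmp2* at 367 ± 12.1 TPM. In Fgfr3CE-E12.5 cells the next by mean were *Mmp9* at 2530 ± 181 and *Mmp14* at 755 ± 23.9 TPM. *Timp2* at 541 ± 135, *Mmp2* at 388 ± 44.8 and *Mmp8* at 366 ± 177 TPM followed without a clear order, since *Mmp8* lay above *Timp2* in replicate 3, at 491 against 446 TPM. Summed TPM of the Mmp genes was 2930, 4780 and 3910 in the Dlx5CE-E12.5 libraries and 18400 and 17000 in the Fgfr3CE-E12.5 libraries, whereas that of the Adamts genes was 1070, 1330 and 1550 against 822 and 633. The summed Timp level was 196, 213 and 206 TPM against 917 and 678. The ratio of summed Mmp to summed Timp TPM was 14.9, 22.5 and 19.0 in Dlx5CE-E12.5 and 20 and 25 in Fgfr3CE-E12.5 libraries, and these ranges overlapped. *Timp2* made up 33.8% to 38.2% of the summed Timp level in Dlx5CE-E12.5 and 69.4% and 65.7% in Fgfr3CE-E12.5 libraries, while *Timp4* made up 5.02% to 6.47% against 0.551% and 0.28%.

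**Figure D4:**
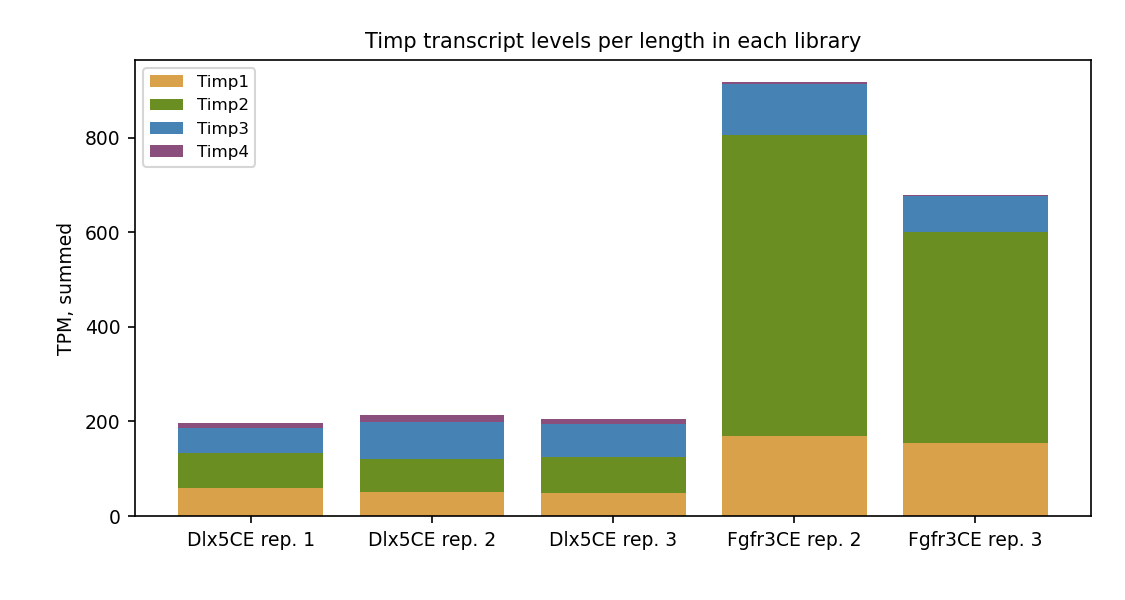
TPM of the 4 Timp genes stacked for each of the 5 libraries, so that a bar's height is the summed Timp level. The bars reach 196 to 213 TPM in Dlx5CE-E12.5 and 917 and 678 TPM in Fgfr3CE-E12.5 libraries, where *Timp2* takes up 69.4% and 65.7% of the bar.

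The members were also compared between the 2 Fgfr3CE-E12.5 libraries, whose ratio of CPM (replicate 2 over replicate 3) had a median of 1.01 over all genes tested, with a 5th percentile of 0.593 and a 95th of 1.72. For *Mmp9*, *Mmp13*, *Mmp14* and *Timp1* this ratio was 1.01, 1.01, 0.957 and 1.00. Among the called members, ratios past these percentiles were found for *Mmp8* (0.448) and *Adamts14* (0.511), higher in replicate 3, and for *Timp4* (2.44) and *Mmp19* (2.03), higher in replicate 2. Of the 7 members called higher in Dlx5CE-E12.5 cells, 6 were higher in Fgfr3CE-E12.5 replicate 2 than in replicate 3. So were 4 of the 7 members called higher in Fgfr3CE-E12.5 cells and 7 of the 11 not called. The median ratio of 1.01 over all genes tested is also above 1. Of the 9 CAR cell markers, 8 were higher in replicate 2, and their sums differed by 1.67 times. Of these 9 markers, 6 were also called higher in Dlx5CE-E12.5 cells and 1, *Foxc1*, in Fgfr3CE-E12.5 cells, and the part of the CAR cell markers in the members' differences was not tested. Each of the 14 members kept its call without either Fgfr3CE-E12.5 library.

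**Figure D5:**
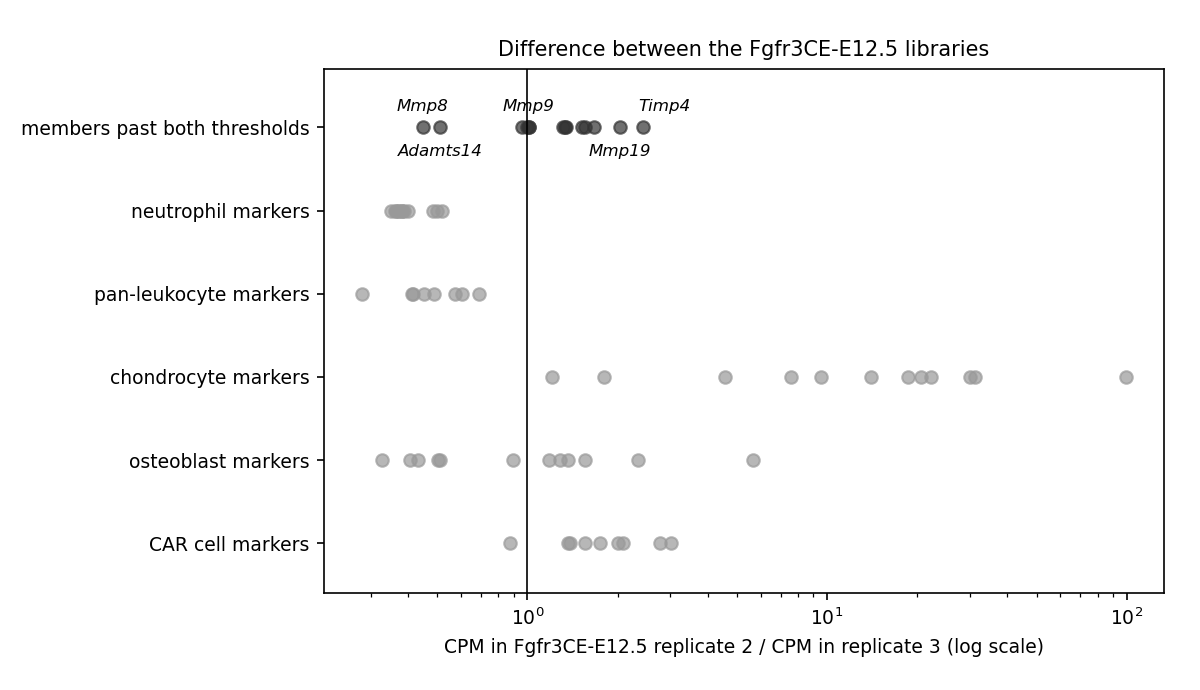
Ratio of CPM in Fgfr3CE-E12.5 replicate 2 to replicate 3 (log axis) for the 14 called members and for marker genes of 5 cell types, 1 point per gene, with the line at equal levels. *Mmp8* (0.448) lies among the neutrophil markers and also within the range of the osteoblast markers. *Mmp9* (1.01) lies on the line, and every chondrocyte marker to the right of it.

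Other genes of matrix turnover were taken from 3 lists. Of 16 tested activators, receptors and inhibitors of proteases, 3 were called higher in Fgfr3CE-E12.5 and 3 in Dlx5CE-E12.5 cells, beside 16.4% and 13.1% of all genes tested, with a median log2 fold change of 0.02. Higher in Fgfr3CE-E12.5 cells were *A2m*, the broad protease trap (3.50), *Plaur*, the urokinase receptor (2.77), and *Plat*, tissue plasminogen activator (2.19), with adjusted p-values of 0.0151, 0.00198 and 0.000253 (edgeR). *A2m* passed the filter only through the Fgfr3CE-E12.5 libraries, so its call is not independent of the filter. Those higher in Dlx5CE-E12.5 cells included *Sdc4*, a cell-surface proteoglycan (-2.51), and *Pcsk5*, a proprotein convertase (-1.81), with adjusted p-values of 5e-04 and 0.000823 (edgeR). *Plaur* was also lower in Fgfr3CE-E12.5 replicate 2 than in replicate 3, at 0.351 times.

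Of 17 other matrix proteases tested, 4 were called higher in Fgfr3CE-E12.5 and 1 in Dlx5CE-E12.5 cells, beside 16.4% and 13.1% of all genes tested, with a median of -0.05. The 4 were *Adam8*, a membrane protease of leukocytes and osteoclasts (2.33, adjusted p = 0.00298), *Ctss*, cathepsin S (1.90, 0.00115), *Dpp4*, a dipeptidyl peptidase (1.80, 0.0184), and *Bmp1*, which trims the carboxyl ends of procollagens (1.46, 0.000936), all by edgeR. *Dpp4* passed the filter only through the Fgfr3CE-E12.5 libraries, so its call is not independent of the filter. *Adam8* and *Ctss* had ratios of 0.39 and 0.585 between the Fgfr3CE-E12.5 libraries, against 0.902 for *Bmp1*. The gene higher in Dlx5CE-E12.5 cells was *Prss23*, a secreted serine protease (-1.42, adjusted p = 0.00266, edgeR).

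Of 18 matrix substrates tested, 4 were called higher in Fgfr3CE-E12.5 and 4 in Dlx5CE-E12.5 cells, beside 16.4% and 13.1% of all genes tested, with a median of 0.07. *Col2a1*, the collagen of cartilage, was the furthest toward Fgfr3CE-E12.5 cells (8.63, adjusted p = 0.00122, edgeR), with 0.795 to 7.38 CPM against 2730 in replicate 2 and 361 in replicate 3. *Col2a1* passed the filter only through the Fgfr3CE-E12.5 libraries, in which it is high, so this call is not independent of the filter. *Spp1*, osteopontin, a known substrate of several Mmp proteins, moved by 2.61, *Col4a1*, a basement membrane collagen, by 1.81 and *Col1a1*, the main collagen of bone, by 1.07, with adjusted p-values of 0.000391, 0.000637 and 0.0278 (edgeR). *Vcan*, the versican that *Adamts1* and *Adamts5* products cleave, was lower in Fgfr3CE-E12.5 cells (-1.48, adjusted p = 0.00291, edgeR), at 65.9, 110 and 99.8 CPM against 36.3 and 29.6. *Acan*, the aggrecan of cartilage, did not pass the main filter, with 0, 0.0991 and 0 CPM against 46.8 in replicate 2 and 1.56 in replicate 3. *Comp*, a cartilage matrix protein, did not pass it either, with 2.44, 4.81 and 4.56 CPM against 191 and 5.98. *Col3a1*, *Lox*, the collagen cross-linking oxidase, and *Fbn1*, fibrillin, moved in the same direction by -1.32, -1.21 and -1.19.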

How the data were processed

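The deposited counts are whole numbers of reads per gene. The authors aligned reads to mm10 with TopHat2 2.0.13 and Bowtie2 2.2.1, per the submitters' processing notes, which also name HTSeq, Cufflinks, Cuffdiff and DESeq2; the annotation was Ensembl with reporter sequences, and the strand setting of the counting is not given in the sources used here. Depth-normalized and rlog tables were not used. Single-cell data were not analysed here.

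Symbols, gene types and coordinates came from GENCODE M21 (GRCm38), where 29965 of the identifiers were found and 76 were not. Counts of 17087 protein-coding genes and 5 reporter sequences entered edgeR 4.0.16 under R 4.3.3 (TMM, quasi-likelihood test, no covariate), with a filter of 10 CPM, or 1 CPM for low members, in 2 libraries. A standard error is the log2 fold change divided by the root of its F value. The fit was tested on simulated counts. No libraries agreed within sampling noise (chi-square per degree of freedom 16.8 to 181), which cannot tell libraries of 1 pool from independent samples. The study describes the samples as biologically independent, and each library counted as 1 sample. The labels do not tie libraries to mice, so p-values measure the spread between these libraries. Alternatives used DESeq2 1.42.0, other scalings, filters and thresholds, GC and length trends, a replicate block and each library left out.

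The members and the lists of partner genes and markers were chosen with earlier results of these data known. Values in every library are given for members past both thresholds (under the lower filter, with at least 50 counts in a library). They are also given for *Mmp2*, *Mmp9*, *Mmp13*, *Mmp14*, *Timp1* to *Timp3*, *Adamts1*, *Adamts4* and *Adamts5*. Values of *Mmp11*, *Mmp27*, *Mmp12*, *Adamts2* and *Adamts9* were added after they were seen. So were those of *C1qa*, *Adgre1*, *Csf1r*, *C1qb*, *Cd68*, *C1qc*, *Mrc1*, *Atp6v0d2*, *Oscar*, *Calcr*, *Nfatc1*, *Acan*, *Comp*, *Bglap*, *Bglap2*, *Ifitm5* and *Sox9*, and the levels of *Col1a1*. In each partner list, the genes called with the largest changes, at most 4 per direction, are named, except 1 that is not reported here. Protein sequence features were not analysed here.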

Additional observations from a re-analysis of the deposited data

How the results depend on the processing

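Of 570 comparisons of a fitted member with an alternative, 536 kept direction and side of the thresholds, 18 lost the call, 8 gained it and 8 changed sign, and 11 of the 14 called members kept their call in all 18 alternatives. The exceptions were *Adamtsl3*, *Adamts12* and *Adamts14* when a change beyond 2-fold was tested (glmTreat), and *Adamts12* after removal of a length trend, which also added *Adamts9* (1.12). With glmTreat, the members called higher in Dlx5CE-E12.5 cells numbered 4, and 5 under the lower filter. With 1 library left out in turn, the main counts ran from 7 to 7 in each direction, and those under the lower filter from 7 to 9 (Fgfr3CE-E12.5) and 9 to 11 (Dlx5CE-E12.5). The members that changed sign were not called: *Mmp2* (0.07) and *Mmp16* (0.07) with library size as the only scaling, *Adamtsl4* (-0.16) after removal of a GC trend, *Mmp16* (0.04) after removal of a length trend, *Adamts2* (-0.04) without Dlx5CE-E12.5 replicate 1, *Mmp16* (0.01) and *Adamts18* (0.04) without Dlx5CE-E12.5 replicate 2, and *Mmp15* (-0.09) without Fgfr3CE-E12.5 replicate 2; the cause was not tested. Over the libraries left out, these 4 ran from -0.04 to 0.59, -0.19 to 0.01, -0.68 to 0.04 and -0.09 to 0.74. Library size alone moved the median of all genes from 0.01 to 0.19 and, under the lower filter, the share of calls higher in Fgfr3CE-E12.5 cells from 56.4% to 66.4%.

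Libraries of the same replicate number had r = 0.13 for number 2 and -0.05 for number 3 (deviations from group means across genes). With 2 Fgfr3CE-E12.5 libraries the deviations of 1 mirror those of the other, so these values cannot decide whether the libraries are paired. With the replicate number as a block, all 7 members called in each direction were kept, and the lower filter gave 8 and 11, without *Mmp25* (1.40) and *Adamts15* (-1.06) and with *Adamts17* (-1.58) and *Adamts3* (-1.59). The median standard error was 0.20, and groups of 3 and 2 libraries were too small for a test of outlying libraries.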
